A study of Mus musculus with 5 samples.

Results

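Binding of Hoxa9 and C/EBPα and the histone marks H3K4me1 and H3K27me3 were examined around 7 genes that encode effector proteins of neutrophils and other myeloid cells: Mpo, Elane, Ctsg, Lyz2, S100a8, S100a9 and Camp. The members were all rows of 4 deposited peak lists with at least 1 bp within 50 kb of 6 fixed mm9 positions: chr11:87607000 for Mpo, chr10:79349000 for Elane, chr14:56719000 for Ctsg, chr10:116715000 for Lyz2, chr3:90472000 for S100a8 and S100a9 together, and chr9:109750000 for Camp. These 6 loci held 138 of 166982 rows: 24 of 26446 C/EBPα peaks, 8 of 6578 Hoxa9 peaks, 81 of 100189 H3K4me1 regions and 25 of 33769 H3K27me3 regions. The positions were not checked against an mm9 annotation and are not taken as start sites. Distances are therefore given to the position, and as the lower or higher coordinate side. Ctsg, Lyz2 and Camp lie on the minus strand in build GRCm38.p6, so their positions may mark the end of the gene. Their lengths there are 2690, 4732 and 2080 bp. A peak on the higher side of these 3 positions may thus lie closer to the gene start than its distance tells. The chr3 position serves a pair of genes whose starts lie 26650 bp apart in build GRCm38.p6, with S100a9 on the higher side of S100a8. No mm9 position of S100a9 was used, so no distance at this locus is a distance to S100a9.

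The cells were hematopoietic progenitors from the bone marrow of C57B6 mice, depleted of lineage-positive cells, grown with IL3 and carrying 2 retroviruses, MIGR1-HA-Hoxa9 and MIGR1-Flag-Meis1. Every library shared these transgenes, so no value compares transformed with untransformed cells. Hoxa9 was precipitated through its HA tag, so its peaks are those of the retroviral protein. Each precipitation was made as 1 library, and the series' 1 input was not analysed here. No value therefore has a replicate error and no test was made. Expression was not measured, so the cell identity given by the labels was not checked against marker genes.

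Neutrophils store antimicrobial proteins in granules that are filled in sequence as the cells mature in the marrow. Myeloperoxidase (Mpo), an enzyme that makes hypochlorous acid, and the serine proteases neutrophil elastase (Elane) and cathepsin G (Ctsg) belong to the azurophil granules, which form first, at the promyelocyte stage. Lysozyme (Lyz2) cleaves bacterial cell walls and is made by neutrophils and macrophages, S100a8 and S100a9 form the cytosolic complex calprotectin, and the cathelicidin precursor (Camp) is packed into the later specific granules. C/EBPα is a leucine zipper factor needed for granulocyte development, and Hoxa9 is a homeodomain factor whose high level keeps progenitors immature. H3K4me1 is found at enhancers, and H3K27me3 is the mark of Polycomb repression.

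The reference promoters of these genes give the sequence context. All 7 genes had an entry in the RefSeq promoter table of build GRCm38.p6, another build than mm9, so no distance between these promoters and the peaks was taken. In the 250 bases before the gene start, the letters GAGGAAG, read on either strand and typical of sites of the myeloid factor PU.1, occurred in 4 of 7, those of Mpo, Elane, Ctsg and S100a8, against 10.6% of all 32851 promoters. The C/EBP letters TTGCNNAA occurred in 1 of 7, S100a9, against 9.56%. The 5 letter core GCAAT within C/EBP sites, a search added after the data were seen, occurred in Mpo, Elane, S100a8, S100a9 and Camp, 5 of 7, against 23.1%. The letters TTTATNG, a HOX form, occurred in S100a8 alone, against 9.81% of all promoters, as CTATAAA, which overlaps TATA box letters. The Lyz2 promoter held none of the 4. A match describes letters and not a bound site. The 5 promoters with a match to GAGGAAG or TTGCNNAA are shown 5′ to 3′ on the gene's strand, with every match of the 4 searches in capitals.
Mpo, chr11:87793534-87793783, plus strand: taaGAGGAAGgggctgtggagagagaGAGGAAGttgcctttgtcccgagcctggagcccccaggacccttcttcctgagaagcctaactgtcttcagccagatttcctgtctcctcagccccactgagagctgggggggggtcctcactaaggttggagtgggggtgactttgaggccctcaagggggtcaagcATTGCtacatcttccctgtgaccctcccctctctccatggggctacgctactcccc
Elane, chr10:79886062-79886311, plus strand: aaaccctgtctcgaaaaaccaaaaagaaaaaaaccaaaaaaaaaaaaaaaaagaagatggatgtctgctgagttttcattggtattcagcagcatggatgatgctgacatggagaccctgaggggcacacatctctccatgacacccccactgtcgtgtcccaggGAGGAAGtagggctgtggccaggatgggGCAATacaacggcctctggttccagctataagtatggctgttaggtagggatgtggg
Ctsg, chr14:56102575-56102824, minus strand: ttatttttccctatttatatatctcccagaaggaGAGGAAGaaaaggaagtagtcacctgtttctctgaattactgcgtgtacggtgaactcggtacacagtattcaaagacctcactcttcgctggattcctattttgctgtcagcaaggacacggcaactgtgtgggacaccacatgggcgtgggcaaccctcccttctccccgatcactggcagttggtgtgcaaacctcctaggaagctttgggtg
S100a8, chr3:90668821-90669070, plus strand: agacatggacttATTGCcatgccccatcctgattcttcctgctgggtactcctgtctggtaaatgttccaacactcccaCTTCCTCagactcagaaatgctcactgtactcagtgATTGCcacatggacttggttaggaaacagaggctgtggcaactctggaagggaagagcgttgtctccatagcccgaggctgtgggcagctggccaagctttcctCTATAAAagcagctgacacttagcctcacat
S100a9, chr3:90695722-90695971, minus strand: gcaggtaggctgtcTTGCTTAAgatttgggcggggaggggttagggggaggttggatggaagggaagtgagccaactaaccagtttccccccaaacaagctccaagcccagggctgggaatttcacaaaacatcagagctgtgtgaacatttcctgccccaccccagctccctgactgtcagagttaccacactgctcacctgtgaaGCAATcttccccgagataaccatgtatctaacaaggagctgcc

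C/EBPα was called at all 6 loci, and its strongest peaks lay at Ctsg, Lyz2 and Elane. The tags in a peak, the authors' count of sequenced fragments in it, ran from 22 to 206 in the 24 peaks, with a median of 52 against 35 over the whole list. Of the 24, 16 lay above the list's median, 66.7% against 48.7% of all C/EBPα peaks. Fold enrichment, the authors' ratio of signal to local background, had a median of 10.49 against 7.74, and 13 of 24 reached 10, against 35.7% of the list. These are counts over few peaks and are given as a description. A C/EBPα summit lay within 5 kb of the position at 5 of 6 loci, against 8.54% of the centres of 100 kb tiles laid over all chromosomes. Of these tiles 53.1% held no H3K4me1 region, while all 6 loci held at least 1. The share among tiles with H3K4me1 was not taken. Tile centres were also not chosen by genes, as the positions were, so nearness to a gene was not matched. The locus without such a summit was the shared position of S100a8 and S100a9, where the distance of a summit to S100a9 was not taken.

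**Figure D1:**
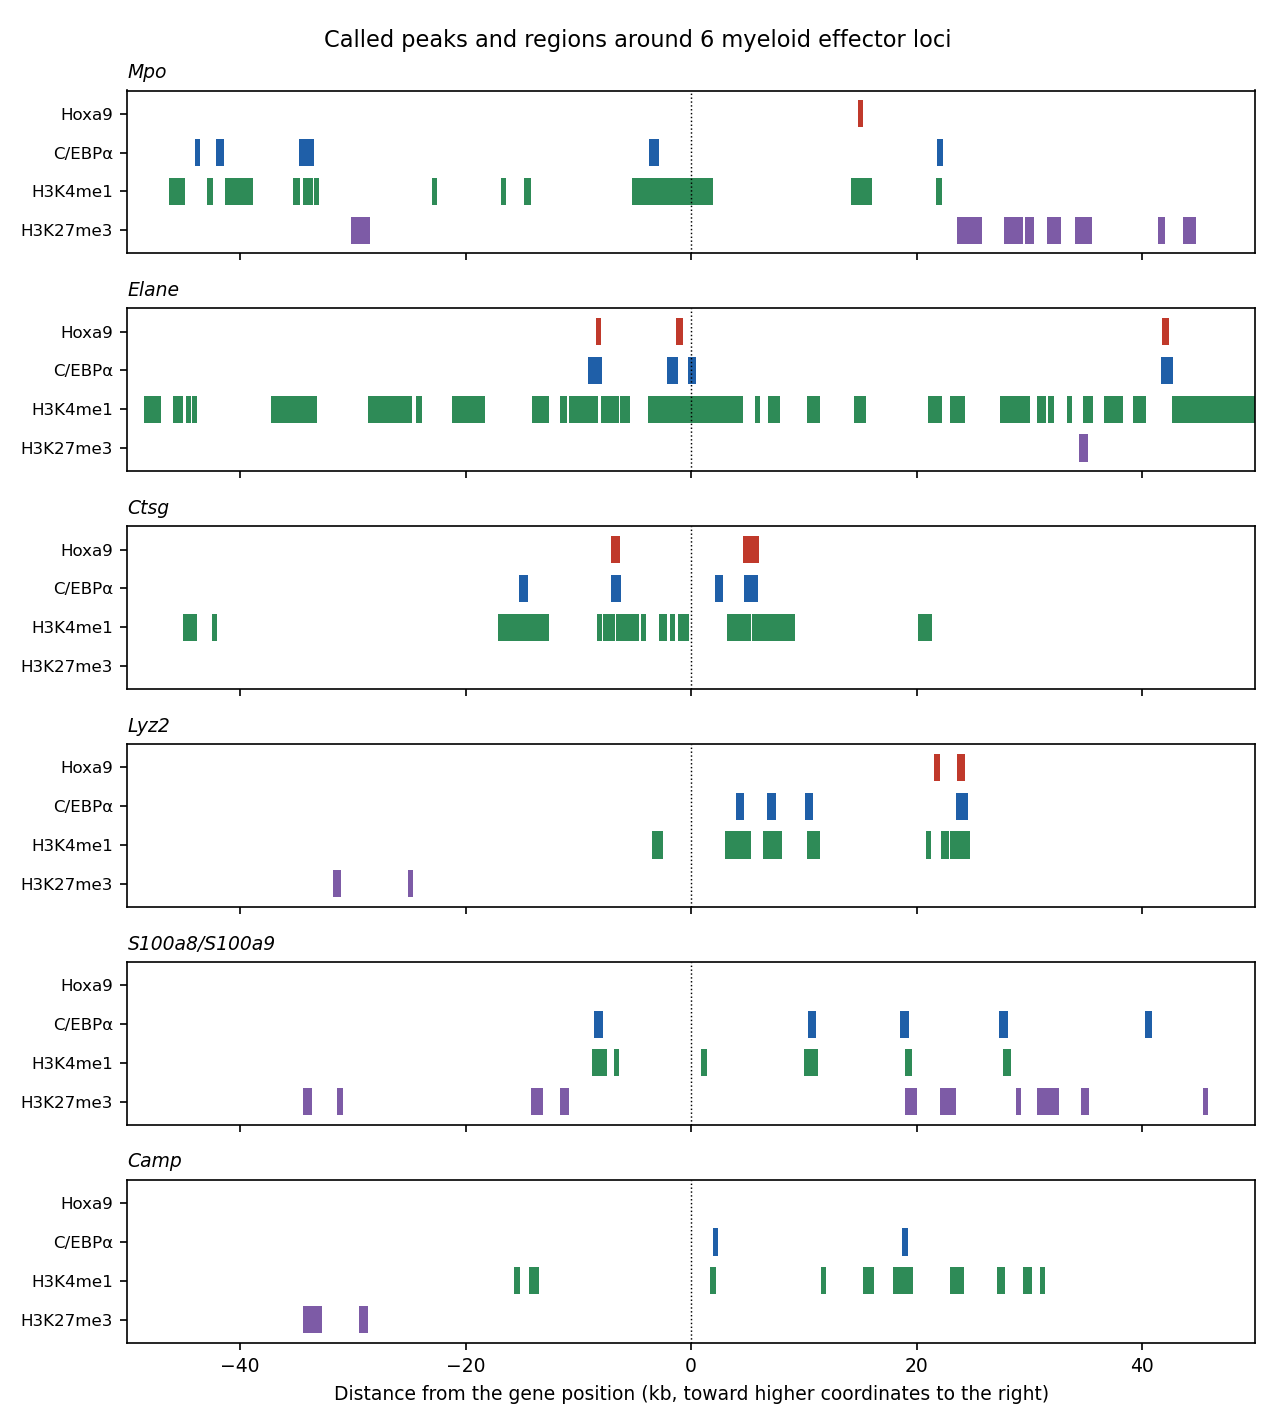
Called rows of the 4 lists within 50 kb of each of 6 positions. The horizontal axis is the distance from the position in kb, each panel is 1 locus, and each bar is a called peak or region cut at the window edge. Hoxa9 was called at Mpo, Elane, Ctsg and Lyz2, and no H3K27me3 region lies within 10 kb of a position. S100a9 has no position of its own, so this does not cover it.

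The number of C/EBPα peaks was 5 at Mpo, 4 each at Elane, Ctsg and Lyz2, 5 at S100a8/S100a9 and 2 at Camp. The mean of the 25733 tiles was 1.03. At least 4 peaks were found in 9.51% of tiles, at least 5 in 5.80% and at least 2 in 24.6%. Much of the genome has few peaks of any kind, so the 12069 tiles with an H3K4me1 region make a closer background: among these, 20.2% held at least 4 C/EBPα peaks, 12.3% at least 5 and 51.4% at least 2. Against that background Camp stood in the middle and the other 5 loci in the upper part. Tags summed over the C/EBPα peaks of a locus came to 456 at Elane, 420 at Ctsg, 338 at Lyz2, 240 at Mpo, 195 at S100a8/S100a9 and 55 at Camp. Mpo and S100a8/S100a9 thus had the most peaks, but fewer tags than the 3 loci with 4 peaks.

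Mpo had C/EBPα peaks of 22, 29, 76, 91 and 22 tags in coordinate order. The strongest, chr11:87603284-87604193, had a fold enrichment of 10.54 and was also the nearest, with its summit 3197 bp to the lower side of the position. Its tags stood at percentile 85.2 of the C/EBPα list, where tied peaks share a rank. The peak of 76 tags, chr11:87572232-87573530, was the widest of the 24 at 1299 bp and lay 33.8 kb to the lower side. In GRCm38 the neighbours of Mpo are Tspoap1 on the lower side and Lpo, the gene of lactoperoxidase, on the higher side.

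Elane, which lies between the protease gene Prtn3 and Cfd, the gene of complement factor D, had C/EBPα peaks of 146, 74, 62 and 174 tags. The peak of 62 tags, chr10:79348711-79349409, covered the Elane position, with its summit 7 bp away and a fold enrichment of 13.14. The strongest, chr10:79390655-79391765, had the highest fold enrichment of all 24 C/EBPα peaks, 42.46, at percentile 98.5 of the list. It lay 42.3 kb to the higher side of the position, the side on which Cfd and Med16 follow Elane in GRCm38, so its link to Elane is one of distance alone. The peak of 146 tags, chr10:79339878-79341081, had a fold enrichment of 27.29 and lay 8.31 kb to the lower side, the side of Prtn3. All 4 peaks had a fold enrichment above 13, and Elane was the only locus of the 6 where each peak passed 10.

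Ctsg, a gene beside the mast cell protease gene Mcpt8 and the granzyme gene Gzme, had C/EBPα peaks of 90, 80, 44 and 206 tags. The peak of 206 tags, chr14:56723714-56724927, was the strongest of the 24, at percentile 97.8 of the list by tags, with a fold enrichment of 28.64. Its summit lay 5134 bp to the higher side of the position. The nearest peak was the weakest of the locus, chr14:56721080-56721813, with 44 tags, a fold enrichment of 8.18 and its summit 2474 bp away. The 4 summits lay within 20 kb of each other.

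Lyz2, whose neighbour on the higher side is its paralog Lyz1, had C/EBPα peaks of 35, 57, 70 and 176 tags, all on that side. In coordinate order each peak held more tags than the one before. The first, chr10:116719015-116719727, was nearest to the position, 4441 bp away, and had the lowest fold enrichment of the 24, 4.81. The last, chr10:116738497-116739570, lay 24.1 kb away, with a fold enrichment of 31.87 and at percentile 96.6 by tags. Lyz1 and Lyz2 are closely similar in sequence, so reads that the aligner could not place between them may be missing from the lists or split, and the handling of such reads is not given in the sources used here.

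S100a8 and S100a9, adjacent genes read as 1 locus, had C/EBPα peaks of 47, 35, 44, 46 and 23 tags. The strongest of them, chr3:90463405-90464218, had a fold enrichment of 8.06 and was also the nearest to the shared position, with its summit 8147 bp to the lower side. The peak of 46 tags, chr3:90499325-90500075, named here after its values were seen, had the highest fold enrichment of the 5, 10.46. Its summit lay 27.7 kb to the higher side, the side of S100a9. Camp had peaks of 27 and 28 tags, at chr9:109751908-109752379 and chr9:109768731-109769203, whose summits lay 2118 bp and 19.0 kb to the higher side. The 7 peaks of both loci thus held at most 47 tags. The 12 peaks of Elane, Ctsg and Lyz2 held from 35 to 206, so the ranges overlap, while the highest values were all at the latter 3 loci.

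**Figure D2:**
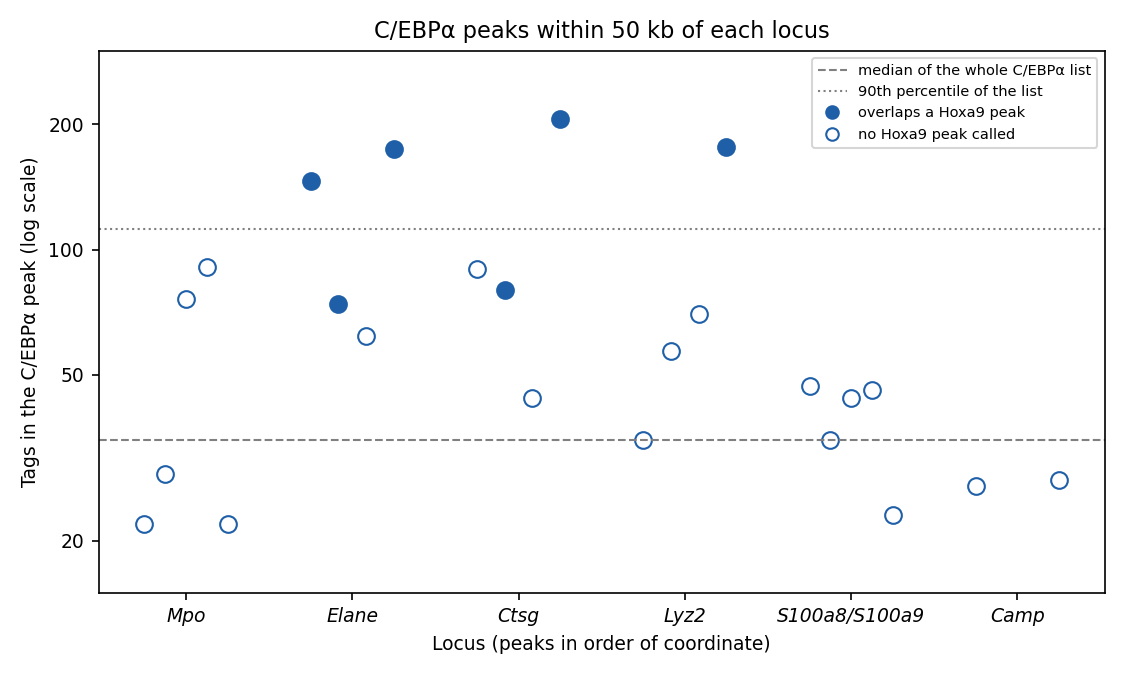
Tags in each of the 24 C/EBPα peaks (vertical axis, log scale) by locus, in coordinate order within a locus. Filled points overlap a Hoxa9 peak, and the lines mark the median, 35, and the 90th percentile, 112, of the whole list. The 4 points above 112 are all filled and lie at Elane, Ctsg and Lyz2.

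Hoxa9 shared 6 of the 24 C/EBPα peaks, with at least 1 bp in common: 3 at Elane, 2 at Ctsg and 1 at Lyz2. The share was 25% (95% exact interval 9.77 to 46.7) against 14.2% over the whole C/EBPα list, a value inside the interval. The 6 shared peaks had 146, 74, 174, 80, 206 and 176 tags, with a median of 160, and the other 18 had from 22 to 91, with a median of 44. Of the shared peaks, 4 lay above every unshared peak, and 3 unshared peaks lay at or above the weakest shared one. In the whole list the medians were 63 tags for shared and 32 for unshared peaks, so the same order holds there. Shared peaks were also wider, with a median of 1092.5 bp against 723.5 at the loci and 815 against 617 in the list. The 24 peaks had a median width of 779.5 bp against 639 in the list. A wider peak has more bases that can meet another, and the shares and tags were not adjusted for width. The 6 shared peaks held 50.2% of the 1704 C/EBPα tags at the loci. Each of the 6 had a fold enrichment of at least 12.12, against 7 of 18 unshared peaks at 10 or more. The share moved with its definition: 3 of 24, 12.5% against 11.6% of the list, had a Hoxa9 summit within 200 bp, and among rows whose fold enrichment reached 10 in each list it was 1 of 13, 7.69% against 6.23%. Without the Elane locus it was 3 of 20, 15%.

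The Hoxa9 peaks themselves were of middling strength in their own list, with a median of 29.5 tags against 32, and 3 of 8 lay above that median, against 48.7% of the list. The exception was at Ctsg, chr14:56723640-56724986, with 119 tags, a fold enrichment of 11.48 and percentile 96.0 by tags. It was the only Hoxa9 peak of the 8 at a fold enrichment of 10 or more, against 16.7% of the list, and it overlapped the strongest C/EBPα peak of the 6 loci, with summits 331 bp apart. The second Hoxa9 peak at Ctsg, chr14:56711924-56712716, had 41 tags, and its summit lay 1 bp from that of a C/EBPα peak of 80 tags, chr14:56711872-56712785. Of the 8, 6 overlapped C/EBPα, 75.0% (34.9 to 96.8) against 56.9% of the Hoxa9 list.

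At Elane the 3 Hoxa9 peaks had 21, 29 and 30 tags, at percentiles 27, 45.2 and 47.1 of the Hoxa9 list by tags, and fold enrichments of 4.68, 5.84 and 6.67. They lay at chr10:79340553-79341017, chr10:79347687-79348253 and chr10:79390766-79391435. Their summits lay 11, 536 and 211 bp from the nearest C/EBPα summit. At least 3 Hoxa9 peaks were found in 1.85% of all tiles and in 3.94% of those with H3K4me1. The middle one overlapped the edge of a C/EBPα peak, chr10:79346894-79347806 (74 tags, fold enrichment 13.68), and lay between its summit and that of the C/EBPα peak over the Elane position.

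At Lyz2 a Hoxa9 peak of 49 tags, chr10:116738552-116739334, with a fold enrichment of 7.58, lay 135 bp from the summit of the C/EBPα peak of 176 tags. A second, chr10:116736516-116737059, with 28 tags, overlapped no C/EBPα peak, and its summit was 2392 bp from that of the closest one. The single Hoxa9 peak at Mpo, chr11:87621768-87622205, with 18 tags, was the weakest of the 8. It was 1 tag above the list's minimum of 17 and stood 7167 bp apart from any C/EBPα summit. Hoxa9 was not called at S100a8/S100a9 or at Camp, where the nearest Hoxa9 summit was 279958 bp and 66843 bp from the position. No Hoxa9 peak was called in 82.6% of tiles and in 65.4% of those with H3K4me1.

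**Figure D3:**
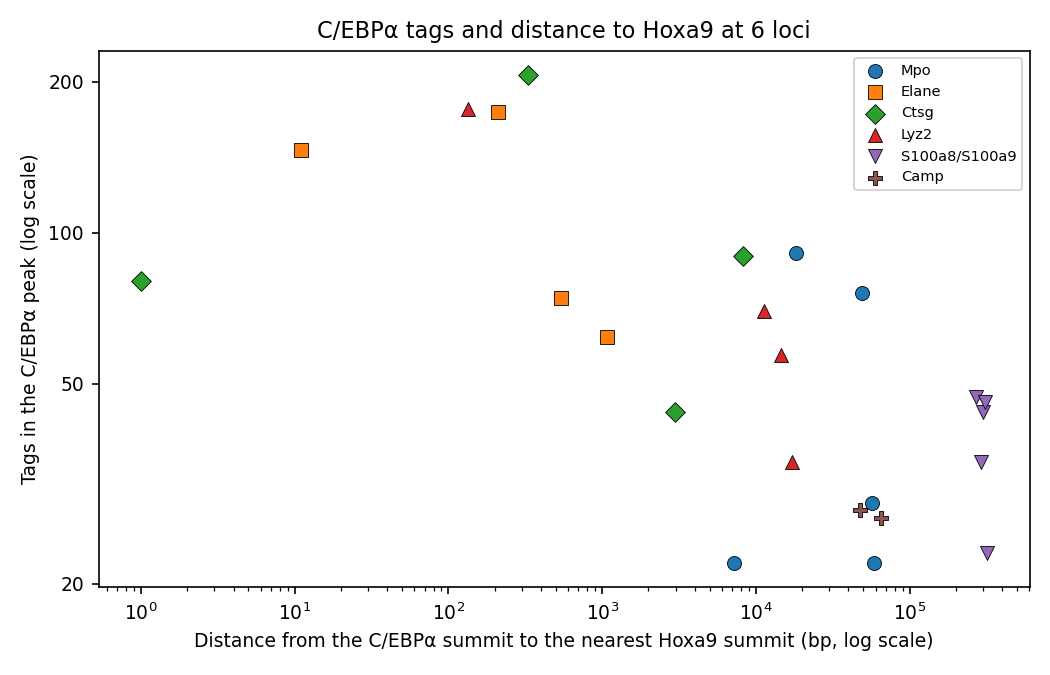
Tags in each of the 24 C/EBPα peaks (vertical axis, log scale) against the distance from its summit to the nearest Hoxa9 summit in bp (horizontal axis, log scale), with a symbol for each locus. The 6 peaks that overlapped Hoxa9 lie at 1 to 536 bp, the other 18 at 1067 to 320533 bp, and the 5 at S100a8/S100a9 are the farthest.

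H3K4me1 was called at all 6 loci and covered most of the Elane window. Called regions covered 52.3% of that window, 19.5% at Ctsg, 17.5% at Mpo, 8.96% at Lyz2, 8.06% at Camp and 4.94% at S100a8/S100a9. The mean over all tiles was 4.64%, and the median over tiles with H3K4me1 was 5.88%. A cover as high as that at Elane was found in 0.621% of tiles with H3K4me1, that at Ctsg in 15.9% and that at Mpo in 19.0%. S100a8/S100a9 was near the median, with 54.4% of such tiles at or above it. The mean cover of the 6 loci, 18.5%, was 11.8% without Elane. Of the 81 regions 5 reached a fold enrichment of 10, against 3.34% of the list. The Elane window held 31 of the 81, against 14 at Ctsg, 13 at Mpo, 10 at Camp, 7 at Lyz2 and 6 at S100a8/S100a9.

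The widest H3K4me1 region of the 6 loci, chr10:79345921-79353568, spanned 7648 bp over the Elane position, at percentile 99.5 of its list by width. It held 475 tags and overlapped C/EBPα and Hoxa9 peaks. At Mpo the widest, chr11:87601743-87606393 (4651 bp), contained the strongest C/EBPα peak, and a further region of 2557 bp, chr11:87606405-87608961, covered the Mpo position. At Ctsg it was chr14:56701887-56706434 (4548 bp), at Lyz2 chr10:116718015-116720272 (2258 bp), at Camp chr9:109767953-109769664 (1712 bp) and at S100a8/S100a9 chr3:90463190-90464550 (1361 bp). The position itself lay inside a region at 2 of 6 loci, Elane and Mpo, against 4.62% of the centres of all tiles, 53.1% of which held no H3K4me1. These centres were not matched to the positions for nearness to a gene. At the other 4 loci the nearest region was 224 bp away at Ctsg, 871 bp at S100a8/S100a9, 1646 bp at Camp and 2502 bp at Lyz2.

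Seen from the mark, 25 of the 81 H3K4me1 regions met a C/EBPα peak, 30.9% against 19.9% of the H3K4me1 list. A Hoxa9 peak was met by 10, 12.3% against 6.22%. The 81 regions had a median width of 909 bp against 768 in the list, and these shares were not adjusted for width. Because 1 peak can span several regions, the 25 regions met 20 C/EBPα peaks and the 10 met 6 Hoxa9 peaks. From the Hoxa9 side the share was below that of the list, 75.0% against 82.4%.

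C/EBPα peaks lay mostly in H3K4me1. Of the 24, 20 overlapped a region, 83.3% (62.6 to 95.3) against 73.6% of the whole list, and 19 had the summit inside one, against 62.8%. Among rows whose fold enrichment reached 10 in each list it was 4 of 13, 30.8% against 13.7%. The 4 without H3K4me1 were 2 at Mpo with 22 and 29 tags, the Ctsg peak of 44 tags nearest to that position, and the S100a8/S100a9 peak of 23 tags. All 4 held fewer tags than the median of the 24, 52. The C/EBPα peak with the highest fold enrichment, 42.3 kb from Elane, was covered by H3K4me1 over only 6.12% of its width, at one edge. The Hoxa9 peak it contained had none. Of the 8 Hoxa9 peaks, 6 overlapped H3K4me1, 75.0% against 82.4% of the list.

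**Figure D4:**
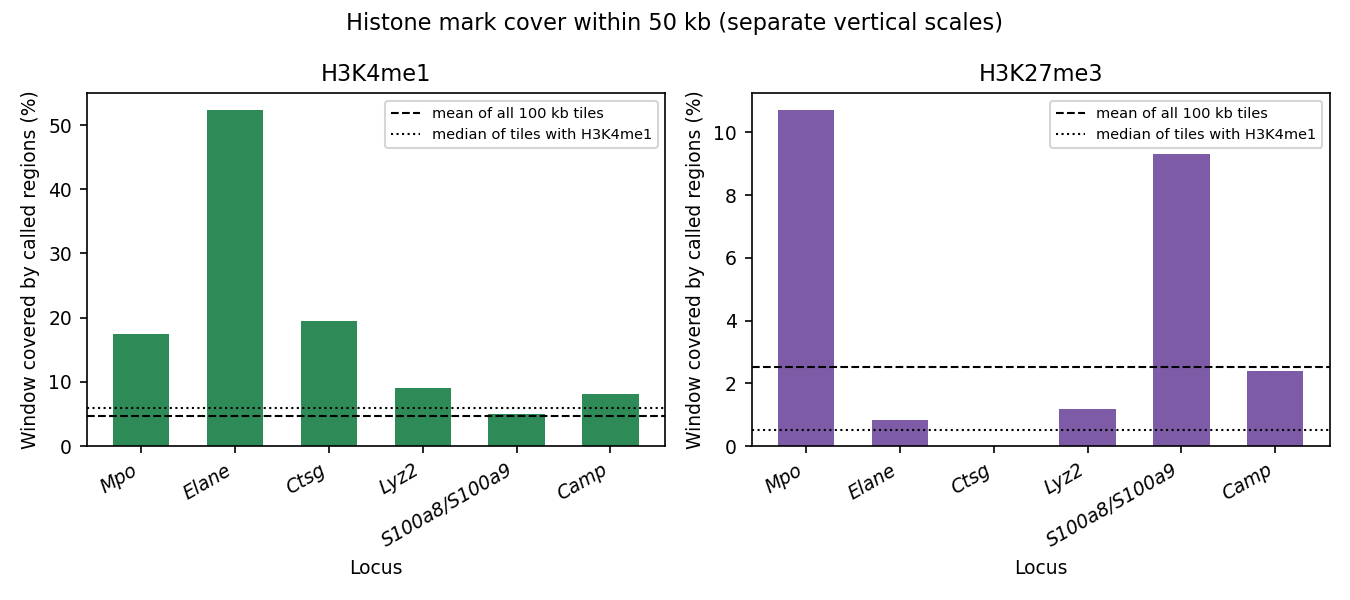
Share of each 100 kb window covered by called regions of H3K4me1 (left) and H3K27me3 (right), in percent, by locus. Lines give the mean of all tiles and the median of tiles with H3K4me1, and the 2 vertical scales differ. H3K4me1 is highest at Elane, 52.3%, and H3K27me3 at Mpo, 10.7%, with 0 at Ctsg.

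H3K27me3 was uneven among the loci. Called regions covered 10.7% of the Mpo window in 8 regions and 9.30% of the S100a8/S100a9 window in 11, against a mean of 2.51% over all tiles. Camp had 3 regions (2.40%), Lyz2 had 2 (1.17%), Elane had 1 (0.832%) and Ctsg had 0, a state shared by 68.0% of tiles. At Ctsg the nearest H3K27me3 region was 85.7 kb from the position. At least 8 regions were found in 10.1% of tiles with H3K4me1, and at least 11 in 5.75%. Mpo and S100a8/S100a9 together held 19 of the 25.

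The 25 H3K27me3 regions were near the middle of their list, without its strongest values. They had from 26 to 159 tags, with a median of 47 against 52 in the list. Their widths ran from 498 to 2165 bp, with a median of 821 against 903, and their fold enrichments from 4.40 to 8.46, with a median of 5.76 in both. At a fold enrichment of 10 or more there were 0 of 25, against 15.2% of the list. The nearest edge was 10.8 kb from the position at S100a8/S100a9, 23.6 kb at Mpo, 24.6 kb at Lyz2, 28.7 kb at Camp and 34.4 kb at Elane. Thus 0 of 6 positions had a region within 10 kb, against 13.0% of tile centres, so most places in the genome share this. On the S100a9 side of the shared position 7 regions were called, the first beginning 18.9 kb away (chr3:90490940-90492008). Among the others, regions began 22.1 kb away (chr3:90494080-90495457) and 28.8 kb away (chr3:90500784-90501281). These regions were named after their values were seen, and their distance to S100a9 was not taken. At Mpo 7 of the 8 regions lay on the higher side, from 23.6 kb outward, beyond all C/EBPα and Hoxa9 peaks of that side. The widest of them, chr11:87630620-87632784, had 159 tags.

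C/EBPα met H3K27me3 once. Of the 24 peaks, 1 overlapped it, 4.17% (0.105 to 21.1) against 2.09% of the list. It was the peak of 44 tags at chr3:90490523-90491313, 18.9 kb to the higher side of the S100a8/S100a9 position, the side on which S100a9 follows S100a8 in GRCm38. H3K4me1 covered 47.5% of it (chr3:90490938-90491587) and H3K27me3 47.3% (chr3:90490940-90492008), so both marks were called on the same stretch. Peaks of C/EBPα touching both marks made up 1.37% of the list. A lone library of mixed cells cannot show whether both marks sat on the same chromosomes. The widest H3K27me3 region of that locus, chr3:90494080-90495457, with 75 tags, lay beyond it, and at Camp and Lyz2 the widest were chr9:109715598-109716626 and chr10:116683236-116683901. At Elane the only H3K27me3 region, chr10:79383388-79384219 with 48 tags, overlapped an H3K4me1 region. Of all 81 H3K4me1 regions of the loci 2 met H3K27me3, against 6.85% of that list. Of the 25 H3K27me3 regions 2 met H3K4me1, against 14.6%, and 0 of 8 Hoxa9 peaks met H3K27me3, against 1.49% of the Hoxa9 list.

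Side by side, the loci differed in their combination of calls. Elane, Ctsg and Lyz2 had C/EBPα peaks of at least 146 tags that Hoxa9 shared, and at most 1.17% H3K27me3 cover. Elane and Ctsg also had weaker shared peaks, of 74 and 80 tags. Mpo had H3K4me1 over its position, C/EBPα of up to 91 tags, 1 Hoxa9 peak of 18 tags apart from them, and H3K27me3 from 23.6 kb outward. S100a8/S100a9 had 5 C/EBPα peaks of up to 47 tags without Hoxa9, near-median H3K4me1 and the most H3K27me3 regions. Camp had 2 C/EBPα peaks of 27 and 28 tags in H3K4me1 and no Hoxa9. Its H3K27me3 cover was 2.40%, near the mean of all tiles, 2.51%. These groupings were made after the values were seen, from 1 library each, and were not tested.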

How the data were processed

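Genomic DNA from 4 chromatin immunoprecipitations was analysed as the peak lists that the authors deposited, 1 library per protein or mark. The submitters' processing notes name MACS 1.4, BWA 0.6.2, CASAVA 1.8.2 and the build mm9, with settings and control not given in the sources used here. Each row gives, per the file headers, a position, a summit and the authors' values: tags, a deposited whole-number count that is not normalized, a p score (the deposited −log10 p-value of the peak, multiplied by 10), fold enrichment (a deposited linear ratio) and a false discovery rate in percent. The sequencing depth of the libraries is unknown. The peak rows summed to 285488 (Hoxa9), 1408867 (C/EBPα), 6242014 (H3K4me1) and 7470847 (H3K27me3) tags, which are not depths, and the fewest tags in a row were 17, 15, 14 and 20. Tags were compared only within a list.

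Rows were assigned to a locus, and to each other, by 1 bp of overlap, in Python 3.11.15 with code tested on simulated intervals. Tiles of the window's length were counted alike. Exact Clopper-Pearson intervals at 95% cover counting error only. The alternatives were other windows, stricter lists, other overlap definitions and each locus left out. Peaks named were the strongest and nearest C/EBPα peak of each locus, all Hoxa9 peaks and those they share, and the widest region of each mark. Further rows were named outside this rule, after their values were seen. Among them were the Mpo rows chr11:87572232-87573530 (C/EBPα) and chr11:87606405-87608961 (H3K4me1). The members and lists were chosen with earlier results of these data known. Of 12 further granule genes looked for, Prtn3, Cfd, Lpo, Lyz1 and Mcpt8 were among the 2 nearest protein-coding genes on a side in the GRCm38.p6 RefSeq table. No mm9 annotation or genome was used, so exons, introns and peak sequences are not given.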

Additional observations from a re-analysis of the deposited data

How the results depend on the processing

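Of 78 alternative values of 10 results, 55 stayed within 1.5 times (counts, covers and the median) or within the 95% interval (shares), and 23 moved. The intervals around 24 peaks are wide, so the rule for shares is loose. That for sharing with Hoxa9, 9.77 to 46.7, also holds the 14.2% of the whole list. Within 25 kb there were 6 H3K27me3 regions covering 2.03% of the windows, and within 100 kb 142 H3K4me1 regions, with H3K27me3 cover at 2.71%. Counts of regions change with the length of the window by construction. H3K27me3 cover was below the 4.07% within 50 kb in both the narrower and the wider windows, and the reason was not tested. With a fold enrichment of at least 10 in every list, 13 C/EBPα peaks, 1 Hoxa9 peak, 5 regions of H3K4me1 and 0 of H3K27me3 were left. The median C/EBPα tags became 80.0, the shares with Hoxa9, H3K4me1 and H3K27me3 7.69%, 30.8% and 0.0%, and the covers 3.25% and 0.0%. In the whole C/EBPα list that setting gave 6.23% shared with Hoxa9. With a p score of at least 100 there were 4 Hoxa9 peaks and 12 H3K27me3 regions, with 2.67% cover.

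Across definitions of overlap, sharing of C/EBPα peaks by Hoxa9 ran from 12.5% (summits within 200 bp, against 11.6% of the list) to 29.2% (both lists extended by 500 bp, against 16.5%), and from 15% without Elane to 31.6% without Mpo or without S100a8/S100a9. Stricter lists leave fewer rows by construction. Extension gave 95.8% of C/EBPα peaks with H3K4me1, against 80.4% of the list, and requiring 50% of the peak to be covered gave 0.0% with H3K27me3, against 1.5%. In settings chosen after seeing the data, H3K4me1 cover was 11.8% and its regions 50 without Elane. Without S100a8/S100a9 there were 14 H3K27me3 regions and 0.0% of C/EBPα peaks touched one. Called peaks have a minimum of tags, so weaker binding cannot be told from none.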

Other observations

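Beyond the windows, between 50 and 100 kb from the positions, the same lists held 11 further C/EBPα peaks, 2 Hoxa9 peaks, 61 H3K4me1 regions and 7 H3K27me3 regions. By tags, none of these C/EBPα peaks came near the strongest one inside, of 206 tags, but this did not hold at each locus. At Camp the outer peak chr9:109833633-109834288 had 39 tags and a fold enrichment of 7.84, above both peaks inside, of 27 and 28 tags. At Mpo the highest fold enrichment inside was 10.94, below that of the outer peak. Elane had the strongest, chr10:79264645-79265739 with 72 tags, 83.6 kb to the lower side, and Mpo had 1 of 62 tags, chr11:87532876-87533722, with a fold enrichment of 17.88, 73.8 kb to the lower side. Ctsg had 0.

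The S100a8/S100a9 locus, which had near-median H3K4me1 cover within 50 kb, was followed on the lower side by an H3K4me1 region of 12429 bp, chr3:90407057-90419485, with 880 tags and a summit 64.3 kb from the position. Only 1 C/EBPα peak, of 18 tags, lay between 50 and 100 kb there. At Elane a strong H3K27me3 region, chr10:79432018-79435260 with 587 tags and a fold enrichment of 26.07, lay 84.9 kb to the higher side and overlapped H3K4me1. At Camp the nearest Hoxa9 peak, chr9:109816484-109817080 with 26 tags, lay 66.8 kb to the higher side inside an H3K4me1 region of 1936 bp. These rows were picked after their values were seen.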
